A study of Mus musculus with 8 samples.

Results

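The nuclear genes of the mitochondrial respiratory chain were examined in oligodendrocyte progenitor cells (OPCs) and in oligodendrocytes, the myelin-forming cells of the central nervous system, through total RNA-seq and ribosome footprints. The members were every listed transcript whose mouse symbol begins with Nduf, Sdha to Sdhd, Uqcr, Cox4 to Cox8 or Atp5. This gave 69 of the 10987 listed transcripts, on 18 chromosomes. By complex they are 25 subunits of complex I, 3 of complex II, 8 of complex III, 10 of complex IV, 14 of ATP synthase and 9 assembly factors. Ndufa4 is counted with complex IV, where its protein is found. No transcript of the mitochondrial genome is listed, so the core subunits that are made inside the organelle were not analysed here.

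OPCs of strain 129S/SvEv were derived from epiblast stem cells and grown with 20 ng/mL bFGF and 20 ng/mL PDGFA. Oligodendrocytes were differentiated from these OPCs for 3 days with noggin, IGF-1, cyclic AMP, NT3 and thyroid hormone (T3, 40 ng/mL), without added bFGF and PDGFA. The labels name no genetic change in either group. For each of 2 cultures of each cell type, lysates of several dishes were pooled, and ribosome footprints left by micrococcal nuclease and total RNA were both sequenced, which gives 8 libraries. By the study's methods the oligodendrocytes came from the corresponding OPC cultures, taken here as those of the same number. The differentiated cultures still hold some undifferentiated OPCs, and in bulk samples fewer cells of a type and less RNA per cell cannot be told apart.

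As background, complexes I and II pass electrons from NADH and succinate to ubiquinone, complex III hands them on to cytochrome c, and complex IV reduces oxygen. Complexes I, III and IV pump protons across the inner membrane, and ATP synthase lets them back through a rotating ring of c subunits to make ATP. Assembly factors help to build the complexes but are not part of the finished enzymes. Myelin-forming cells make large amounts of lipid and protein, and mature oligodendrocytes are known to rely in part on glycolysis.

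Levels are FPKM, fragments scaled to length and to the number of mapped reads, computed by the authors over the whole transcript for RNA-seq and over the coding sequence (CDS) for footprints, so levels can be set side by side between genes of the same kind of library. Estimated from the spacing of low values, between 77.9 and 249 Mb of sequence were aligned per library, or a whole multiple of this that may differ between libraries, so the libraries cannot be ranked by depth. The share of transcripts listed at 0 was 31.1% in the footprints of oligodendrocyte replicate 2 and 9.48% to 20.5% in the other libraries, and 264 transcripts at 0 in that library were at 10 FPKM or more in the footprints of replicate 1. An FPKM of 0 is therefore given only as listed. Among markers, the summed RNA FPKM of 6 listed oligodendrocyte genes was 34.3 and 36.7 in OPCs and 3696 and 3245 in oligodendrocytes. For 5 listed OPC genes it was 297 and 298 against 566 and 654, with most of the difference in Gpr17, which was at 8.38 and 4.91 in OPCs and 221 and 271 in oligodendrocytes. Of the other 4, RNA of Pdgfra and Sox6 rose too, and neither Ptprz1 nor Sox5, with log2 fold changes of 0.0051 and -0.69, passed. The sum of 2 listed proliferation genes was 119.8 and 175 in OPCs and 35.9 and 31.6 in oligodendrocytes, and that of 3 listed astrocyte genes was 14.4 and 11.02 against 67.2 and 39.8. The part of cell division and of astrocyte-like cells in the values below was not tested.

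Of the RNA-seq FPKM over all listed transcripts, the 69 members took 3.61% and 4.25% in OPCs and 4.17% and 4.77% in oligodendrocytes. Their shares of footprint FPKM were 4.32% and 4.78% in OPCs and 4.91% and 5.36% in oligodendrocytes. The shares overlapped between cell types in RNA-seq and lay higher in oligodendrocytes in footprints. Summed FPKM of the members in oligodendrocytes was 0.988 times that in OPCs in RNA-seq and 0.913 times in footprints. In footprints their share rose while their sum fell, so the sum over all listed transcripts was lower in oligodendrocytes. Ratios of summed FPKM given below take in this change.

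In RNA-seq, 11 of the 68 members tested passed an adjusted p of 0.05 (limma with a trend on log2(FPKM + 0.1), Benjamini-Hochberg adjustment over all transcripts), or 16.2%, beside 33.2% of all 8346 transcripts tested. Higher in oligodendrocytes were 6 (background 13%), namely Ndufa1, Ndufa3, Ndufb2, Sdhb, Cox5b and Cox6a1, which are subunits of the finished complexes. Lower were 5 (background 20.2%), namely Ndufa5, Ndufab1 and the assembly factors Ndufaf4, Ndufaf5 and Ndufaf6. With the culture number as a block, 18 passed, 8 higher and 10 lower, beside 3323 of all 8346 transcripts. Without OPC replicate 1 or without OPC replicate 2 only Ndufaf6 passed, without oligodendrocyte replicate 1 Ndufaf4, Ndufaf5, Ndufaf6 and Ndufaf8 passed, and without oligodendrocyte replicate 2 Ndufaf4, Ndufaf5 and Ndufaf6 passed. Each of the 6 calls of higher RNA was thus lost whichever library was left out. Over all transcripts the calls also went from 2772 to 532 and 364 without OPC replicate 1 or 2, and to 2599 and 1633 without oligodendrocyte replicate 1 or 2.

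In footprints, 9 of 68 members passed, or 13.2%, beside 23.6% of all 8342 transcripts tested. Higher were Ndufa1 and Cox6a1 (background 12.8%), and lower were 7 (background 10.8%), namely the c subunits Atp5g1, Atp5g2 and Atp5g3 with Atp5o of ATP synthase, Ndufa5 of complex I, and the assembly factors Ndufaf4 and Ndufaf5. With the culture number as a block 14 passed, 2 higher and 12 lower, beside 1735 of all 8342 transcripts. Without oligodendrocyte replicate 1 there were 11, without OPC replicate 1 or OPC replicate 2 there were 0, and without oligodendrocyte replicate 2 there were 0. Over all transcripts the calls went from 1969 to 3442 without oligodendrocyte replicate 1, to 778 without oligodendrocyte replicate 2 and to 0 without either OPC culture. The groups did not overlap, with oligodendrocytes higher, for 14 of 68 members in RNA-seq (27.6% of all transcripts) and for 15 in footprints (31.8%), and with oligodendrocytes lower for 21 in RNA-seq (44.2%) and 26 in footprints (37.9%). With 2 cultures against 2, an exact permutation test of a single transcript cannot give a p below 0.333.

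For 62 of 68 members the absolute log2 change in RNA-seq was under 1. The log2 fold change, oligodendrocytes minus OPCs in log2(FPKM + 0.1), had a median of -0.15 over the 68 members in RNA-seq, where the median of all transcripts was -0.23, and of -0.15 in footprints, where that of all transcripts was -0.16. By complex, the RNA-seq median was 0.41 for complex IV, -0.07 for complex I, -0.15 for complex II, -0.16 for complex III, -0.22 for ATP synthase and -1.10 for the assembly factors. The footprint medians in the same order were 0.08, -0.06, -0.23, -0.17, -0.26 and -0.57. Complex IV and the assembly factors stood at opposite ends in both kinds. Scaling by the median ratio raised the RNA-seq median of all transcripts by 0.18, and under it the medians of complexes I, II and III became 0.11, 0.03 and 0.03, while those of complex IV (0.56), ATP synthase (-0.04) and the assembly factors (-0.93) kept their sign.

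**Figure D1:**
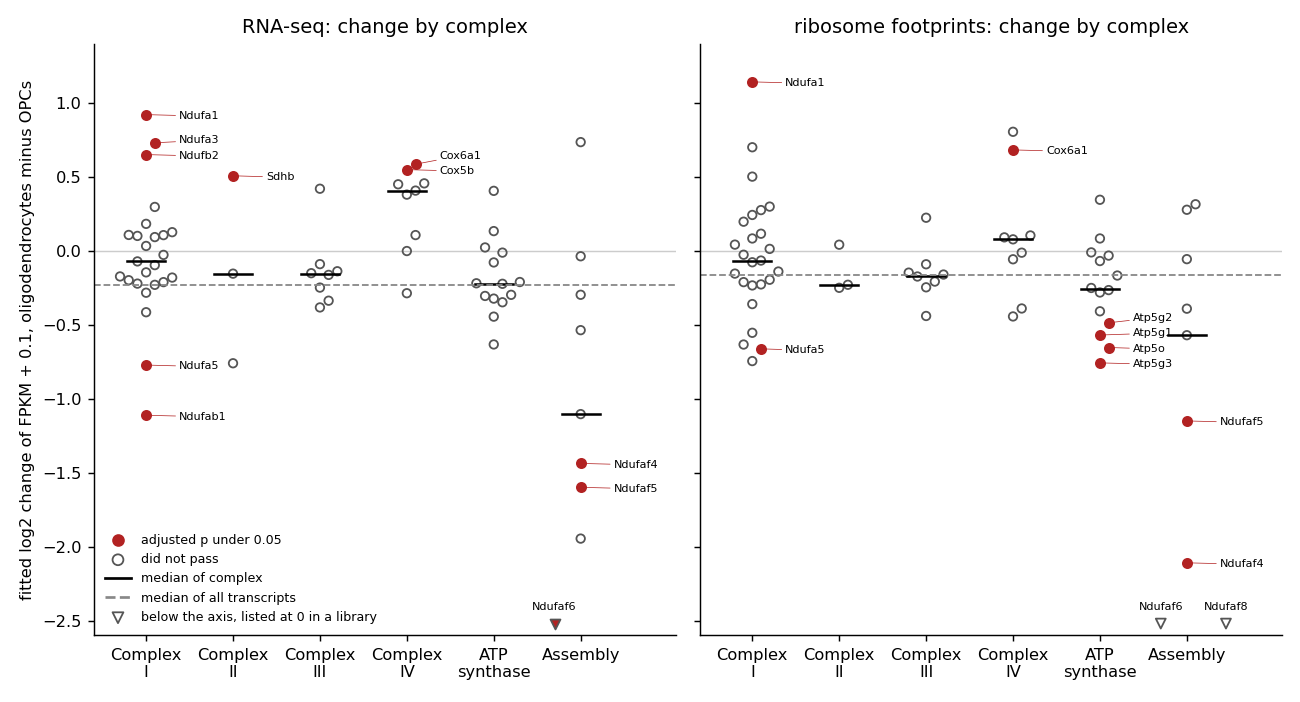
Change from OPCs to oligodendrocytes, in log2(FPKM + 0.1), of each tested member by complex, for RNA-seq (left) and footprints (right). Filled points passed an adjusted p of 0.05 (limma), horizontal bars are the median of each group and the dashed line is the median of all transcripts tested. The median of complex IV lies above that line in both panels and that of the assembly factors below it, and triangles at the foot are members listed at 0 in a library that fall below the axis.

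Of the 6 listed assembly factors of complex I, 3 fell in RNA-seq and 2 in footprints, and none rose. Of all transcripts, 20.2% and 10.8% fell. The RNA of 5 was lower in both oligodendrocyte cultures than in either OPC culture, and the footprints of the same 5 were lower too, beside 44.2% of all transcripts in RNA-seq and 37.9% in footprints. The median of the 6 was -1.52 in RNA-seq and -1.63 in footprints (log2 fold change). Over all settings it lay between -1.79 and -1.06 in RNA-seq and between -1.82 and -0.86 in footprints. With transcripts listed at 0 in a library left out, it was -1.44 over 5 factors in RNA-seq and -0.86 over 4 in footprints. The footprint median thus depends on values listed at 0. The summed FPKM of the 6 in oligodendrocytes was 0.363 times that in OPCs in RNA-seq and 0.421 times in footprints, where the sum over complex I subunits was 1.03 and 0.961 times. Of 8 further complex I assembly factors with other symbols, 2 fell in RNA-seq, beside 20.2% of all transcripts. These were Tmem70 and Timmdc1 (limma, adjusted p = 0.0189 and 0.0496), and 0 of 8 passed in footprints. Tmem126b lay higher in both kinds, by 0.37 and 0.66 on the log2 scale, without passing.

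Ndufaf4 encodes a factor that acts in the building of the arm that sits in the matrix. It spans chr4:24898083-24905001, plus strand (GRCm38), with 3 exons. Its RNA was 27.05 and 28.4 FPKM in OPC cultures and 11.3 and 9.11 in oligodendrocyte cultures, and its footprints were 79.8 and 107 FPKM in OPC cultures and 26.98 and 16.9 in oligodendrocyte cultures. All oligodendrocyte values were below all OPC values in both kinds. The log2 change was -1.44 ± 0.21 (SE) in RNA-seq (limma, adjusted p = 0.00595) and -2.11 ± 0.31 in footprints (adjusted p = 0.019). It passed in 10 of 12 settings in RNA-seq and in 8 of 12 in footprints.

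Ndufaf5 (chr2:140170649-140203689, plus strand, 11 exons) encodes an enzyme that hydroxylates an arginine of the core subunit NDUFS7. RNA-seq listed 26.2 and 29.2 FPKM in OPC cultures and 11.9 and 6.901 in oligodendrocyte cultures. The footprint values were 27.7 and 26.1 FPKM in OPC cultures and 12.4 and 11.7 in oligodendrocyte cultures, again without overlap between the cell types. The fold change was -1.60 ± 0.30 on the log2 scale in RNA-seq (limma, adjusted p = 0.0128) and -1.15 ± 0.22 in footprints (adjusted p = 0.0335). With the culture number as a block the footprint change no longer passed (adjusted p = 0.0719).

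Ndufaf6 (chr4:11051045-11076204, minus strand, 9 exons) is needed for early steps of complex I building. Its RNA was at 18.4 and 22.04 FPKM in OPCs and was listed at 0 in both oligodendrocyte libraries, while its footprints were at 23.2 and 29.1 FPKM in OPC cultures and 4.803 and 0 in oligodendrocyte cultures. Footprints in oligodendrocyte replicate 1 were above 0, although RNA of the same culture was listed at 0. The RNA-seq difference passed the threshold (limma, adjusted p = 0.00089), rests on values listed at 0 and has no fold. Where transcripts listed at 0 were left out, Ndufaf6 was not tested.

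Ndufaf8, a small partner of Ndufaf5, was at 38.2 and 29.5 FPKM in OPC cultures and 17.8 and 4.17 in oligodendrocyte cultures in RNA-seq and at 86.9 and 70.6 FPKM in OPC cultures and 43.6 and 0 in oligodendrocyte cultures in footprints. Its RNA missed the threshold (log2 change -1.95 ± 0.64, limma, adjusted p = 0.0645) and passed in 5 of 12 settings. The spread between the oligodendrocyte cultures was wide. Ndufaf1 was at 10.8 and 16.98 FPKM in OPC cultures and 10.2 and 8.56 in oligodendrocyte cultures in RNA-seq and at 29.6 and 30.2 FPKM in OPC cultures and 26.05 and 15.5 in oligodendrocyte cultures in footprints, without overlap and without passing. Ndufaf3 was at 10.05 and 6.32 FPKM in OPC cultures and 7.33 and 8.24 in oligodendrocyte cultures in RNA-seq, with overlap, and at 32.9 and 38.8 FPKM in OPC cultures and 45.5 and 41.4 in oligodendrocyte cultures in footprints.

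The 3 assembly factors of complex II did not pass. Sdhaf1, which helps to insert the iron-sulfur clusters of SDHB, had RNA at 14.1 and 13.9 FPKM in OPC cultures and 9.45 and 13.7 in oligodendrocyte cultures, but 1733 of the 2490 bases of its transcript overlap E130208F15Rik on the opposite strand. Sdhaf3 had the lowest RNA level of the assembly group in OPCs, at 2.57 and 4.65 FPKM in OPC cultures and 1.11 and 2.17 in oligodendrocyte cultures in RNA-seq. Sdhaf4, which binds free SDHA, lay higher in oligodendrocytes, at 16.9 and 24.5 FPKM in OPC cultures and 39.9 and 28.99 in oligodendrocyte cultures in RNA-seq and 58.5 and 83.5 FPKM in OPC cultures and 85.2 and 88.9 in oligodendrocyte cultures in footprints, and passed in RNA-seq only under median-ratio scaling.

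**Figure D2:**
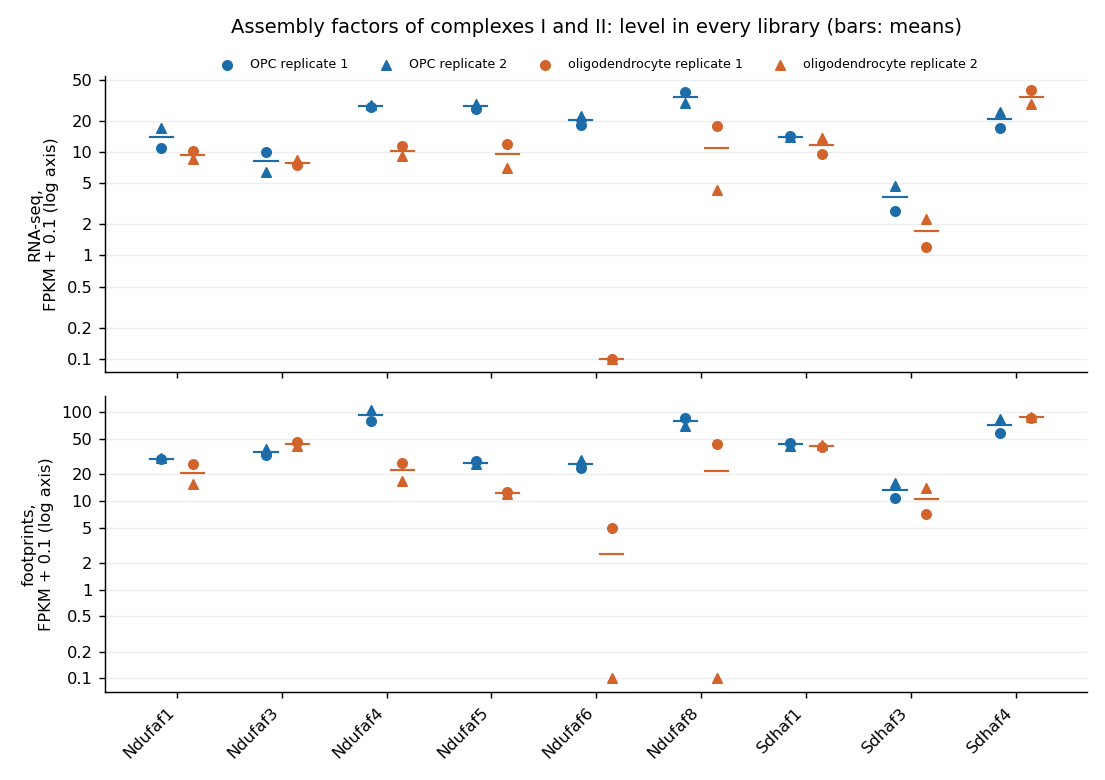
RNA-seq (top) and footprint (bottom) FPKM + 0.1 of the 9 assembly factors in every library, on log axes. Circles are replicate 1, triangles replicate 2, and short bars the mean of each cell type. For Ndufaf1, Ndufaf4, Ndufaf5, Ndufaf6 and Ndufaf8 all oligodendrocyte points lie below the OPC points in both panels, and points at 0.1 are transcripts listed at 0.

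The promoter of Ndufaf4 is shown beside that of Cox6a1, a subunit gene that moved the other way, because both hold the same motif. In the 250 bases before the start and 50 after it (RefSeq, GRCm38.p6), which could be matched for 57 of the 69 members, CGCATGCGC, from the motif of nuclear respiratory factor 1 (NRF1), occurred in 8 of 57 members (14%) and in 1.81% of all 27025 promoters. These 8 are Ndufaf4, Ndufaf5, Cox6a1, Atp5g2, Atp5k, Ndufa8, Uqcr11 and Uqcrc1. Of them Ndufaf4, Ndufaf5 and Atp5g2 passed as lower and Cox6a1 as higher in at least 1 kind of library. The other 4 passed in neither. Of all transcripts 20.2% passed as lower and 13% as higher in RNA-seq, and 10.8% and 12.8% in footprints. The share of all transcripts passing in at least 1 kind was not counted. The motif of ETS factors, CCGGAAG, was in 15 of 57 members (26.3%) and 9.12% of all promoters, and that of YY1, AAGATGGCG, in 6 (10.5%) and 1.49%. Both strands were searched, and the letters of different motifs can overlap at their ends. The 180 bases before each start follow on the strand of the gene, chr4:24897903-24898082 (plus strand) for Ndufaf4 and chr5:115348959-115349138 (minus strand) for Cox6a1, with motif matches in capitals. The listed transcript of Cox6a1 starts upstream of the RefSeq start, so the last 23 of its 180 bases lie inside the listed transcript.
Ndufaf4: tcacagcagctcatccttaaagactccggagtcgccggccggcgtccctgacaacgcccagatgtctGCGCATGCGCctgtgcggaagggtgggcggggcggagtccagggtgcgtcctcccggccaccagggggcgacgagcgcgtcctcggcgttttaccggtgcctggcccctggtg
Cox6a1: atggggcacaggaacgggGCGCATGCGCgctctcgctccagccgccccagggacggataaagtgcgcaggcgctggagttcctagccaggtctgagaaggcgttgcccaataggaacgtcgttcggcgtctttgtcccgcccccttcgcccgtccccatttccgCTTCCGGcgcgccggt
The NRF1 letters, matched on both strands with a shift of 1 base, begin 113 bases before the start in Ndufaf4 and 162 before it in Cox6a1, where an ETS match follows 16 bases before the RefSeq start, inside the listed transcript. These matches are letters in the sequence, and binding was not measured.

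Among the 25 complex I subunits, 3 rose and 2 fell in RNA-seq, where 13% and 20.2% of all transcripts did, and 1 rose and 1 fell in footprints, where 12.8% and 10.8% did. The core subunits Ndufs1, Ndufs3 and Ndufs7 hold or flank the iron-sulfur clusters along which electrons run. None of these 3 passed in either kind. Ndufs1, the largest, was at 43.99 and 64.2 FPKM in OPC cultures and 43.7 and 47.00 in oligodendrocyte cultures in RNA-seq and at 73.5 and 82.01 FPKM in OPC cultures and 86.4 and 102 in oligodendrocyte cultures in footprints. Ndufs3 was at 55.7 and 75.6 FPKM in OPC cultures and 51.6 and 60.1 in oligodendrocyte cultures in RNA-seq and 109 and 148 FPKM in OPC cultures and 111 and 140.0 in oligodendrocyte cultures in footprints. Ndufs7 was at 158 and 122 FPKM in OPC cultures and 134 and 126 in oligodendrocyte cultures in RNA-seq and 316 and 254 FPKM in OPC cultures and 289 and 254 in oligodendrocyte cultures in footprints.

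The accessory subunit Ndufa1, a short protein of the membrane arm encoded at chrX:37187588-37191163, minus strand, rose most. Its RNA was 82.01 and 111 FPKM in OPC cultures and 194 and 169.5 in oligodendrocyte cultures, and its footprints were 364 and 388 FPKM in OPC cultures and 843 and 818 in oligodendrocyte cultures. Both oligodendrocyte cultures lay above both OPC cultures, with a log2 change of 0.92 ± 0.20 in RNA-seq (limma, adjusted p = 0.0188) and 1.14 ± 0.10 in footprints (adjusted p = 0.00812). It passed in 7 of 12 settings in RNA-seq and 9 of 12 in footprints, among them the footprint fit without oligodendrocyte replicate 1. Set against the core subunit Ndufs7, its FPKM ratio in footprints went from 1.15 and 1.53 in OPCs to 2.92 and 3.23 in oligodendrocytes.

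Ndufa3 and Ndufb2, accessory subunits of the membrane arm region, rose in RNA-seq and did not pass in footprints, and their change of ribosome density, which tests the difference, did not pass either (limma, adjusted p = 0.875 for both). Ndufa3 was at 163 and 129 FPKM in OPC cultures and 238 and 244 in oligodendrocyte cultures in RNA-seq, a log2 change of 0.73 ± 0.17 (limma, adjusted p = 0.0232), and at 587 and 709 FPKM in OPC cultures and 985 and 848 in oligodendrocyte cultures in footprints, without overlap but with an adjusted p of 0.097. For Ndufb2 the RNA values were 184 and 161 FPKM in OPC cultures and 238 and 308 in oligodendrocyte cultures, a log2 change of 0.65 ± 0.18 (adjusted p = 0.0427). Its footprints were 679 and 656 FPKM in OPC cultures and 702 and 713 in oligodendrocyte cultures, nearly level. Ndufb2 shares 145 bases of its transcript with Gm42420 on the same strand, so its reads may be divided.

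Ndufa5, an accessory subunit of the arm in the matrix, fell in both kinds. RNA was at 83.3 and 114 FPKM in OPC cultures and 56.7 and 57.5 in oligodendrocyte cultures and footprints were at 457 and 469.7 FPKM in OPC cultures and 271 and 316 in oligodendrocyte cultures. The log2 change was -0.77 ± 0.20 in RNA-seq (limma, adjusted p = 0.0305) and -0.66 ± 0.12 in footprints (adjusted p = 0.0319). Ndufab1, the mitochondrial acyl carrier protein, which also serves fatty acid synthesis in the organelle, had the lowest RNA level of complex I, at 11.95 and 19.1 FPKM in OPC cultures and 7.28 and 6.63 in oligodendrocyte cultures, and a log2 change of -1.11 ± 0.30 (adjusted p = 0.0372). Its footprints were at 322 and 369 FPKM in OPC cultures and 199.6 and 248 in oligodendrocyte cultures and missed the threshold (adjusted p = 0.0621), though the groups did not overlap, and passed with the culture number as a block. All 30-base words of its CDS also occur in another gene, so its level is uncertain.

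Ndufc2, an accessory subunit of the membrane arm, had the highest mean level of complex I in both kinds. Its RNA was at 402 and 408 FPKM in OPC cultures and 285 and 325 in oligodendrocyte cultures and its footprints at 1624 and 1366 FPKM in OPC cultures and 1094 and 723 in oligodendrocyte cultures. It lay lower in oligodendrocytes without overlap in both kinds and passed in both with the culture number as a block. The other 19 accessory and core subunits did not pass in either kind, with log2 fold changes from -0.28 (Ndufa10) to 0.30 (Ndufb11) in RNA-seq and from -0.55 (Ndufb6) to 0.70 (Ndufb7) in footprints. The footprints of Ndufb7 were at 335 and 159 FPKM in OPC cultures and 389 and 364 in oligodendrocyte cultures, and OPC replicate 2 was far below the rest.

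Of the 3 listed subunits of complex II, which also serves the citric acid cycle, 1 passed in RNA-seq, Sdhb, beside 33.2% of all transcripts. Sdha carries the flavin and oxidises succinate, Sdhb holds the iron-sulfur clusters, and Sdhc anchors the enzyme in the membrane. Sdha RNA was 60.1 and 80.7 FPKM in OPC cultures and 48.3 and 35.00 in oligodendrocyte cultures, whereas Sdhb RNA was 175 and 167 FPKM in OPC cultures and 231 and 257 in oligodendrocyte cultures. Sdhb rose (log2 change 0.51 ± 0.15, limma, adjusted p = 0.0449), and Sdha lay lower without overlap and missed the threshold (-0.76 ± 0.24, adjusted p = 0.0547), which it passed with the culture number as a block. The FPKM ratio of Sdhb to Sdha in RNA-seq was 2.92 and 2.08 in OPCs and 4.78 and 7.36 in oligodendrocytes.

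In footprints no complex II subunit passed, and none passed for a change of ribosome density (limma). Sdha was at 124 and 149 FPKM in OPC cultures and 115 and 116 in oligodendrocyte cultures, lower in oligodendrocytes without overlap. Sdhb was at 399 and 393 FPKM in OPC cultures and 498 and 334 in oligodendrocyte cultures, where the values of oligodendrocytes enclosed those of OPCs. Their ratio was 3.22 and 2.64 in OPCs and 4.31 and 2.87 in oligodendrocytes, which overlap. Sdhc was at 40.3 and 45.6 FPKM in OPC cultures and 37.6 and 39.5 in oligodendrocyte cultures in RNA-seq and 344 and 442 FPKM in OPC cultures and 354 and 304 in oligodendrocyte cultures in footprints and did not pass in either. Sdhd is not among the listed members.

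No subunit of complex III passed in either kind (limma). In each kind 1 had an unadjusted p under 0.05, beside 3781 of all 8346 transcripts in RNA-seq and 3173 of 8342 in footprints. Uqcrc1 and Uqcrc2 form the core that faces the matrix, and Uqcrfs1 is the Rieske iron-sulfur protein. In RNA-seq, Uqcrc1 was at 186 and 175 FPKM in OPC cultures and 157 and 148 in oligodendrocyte cultures, Uqcrc2 at 125 and 151 FPKM in OPC cultures and 117 and 143 in oligodendrocyte cultures, and Uqcrfs1 at 146 and 166 FPKM in OPC cultures and 121 and 117 in oligodendrocyte cultures. In footprints, Uqcrc1 was at 346 and 393 FPKM in OPC cultures and 319 and 348 in oligodendrocyte cultures, Uqcrc2 at 278 and 327 FPKM in OPC cultures and 283 and 284 in oligodendrocyte cultures, and Uqcrfs1 at 395 and 392 FPKM in OPC cultures and 337 and 328 in oligodendrocyte cultures. Uqcrfs1 was the only one of these whose groups did not overlap in footprints, with oligodendrocytes lower.

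Among the small subunits of complex III, Uqcrh, the hinge protein that docks cytochrome c, had the highest mean RNA level, at 341 and 445 FPKM in OPC cultures and 355 and 353 in oligodendrocyte cultures, and Uqcrq the lowest, at 43.00 and 60.2 FPKM in OPC cultures and 39.2 and 41.4 in oligodendrocyte cultures. The order was not kept in footprints, where Uqcrq was among the highest, at 965 and 818 FPKM in OPC cultures and 941 and 629.9 in oligodendrocyte cultures, and Uqcrh lay at 513 and 624 FPKM in OPC cultures and 456 and 552 in oligodendrocyte cultures. Uqcr11 had footprints at 781 and 767 FPKM in OPC cultures and 931 and 879 in oligodendrocyte cultures, and was the only subunit of the complex with a positive log2 fold change in both kinds, without passing in either. Uqcr10 footprints were at 915 and 917 FPKM in OPC cultures and 671 and 680.1 in oligodendrocyte cultures, just short of the threshold (log2 change -0.44 ± 0.10, limma, adjusted p = 0.0507), and passed in 4 of 12 settings.

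Complex IV had the highest RNA-seq median of the 6 groups. Of the 9 subunits tested in RNA-seq, Cox5b and Cox6a1 rose, where 13% of all transcripts did. Cox4i1 and Cox6b1 lay higher without overlap and passed with the culture number as a block. In all, 4 of 9 lay higher without overlap in RNA-seq, beside 27.6% of all transcripts. Summed over the complex, FPKM in oligodendrocytes was 1.21 times that in OPCs in RNA-seq and 1.01 times in footprints. Its share of all listed FPKM was 0.823% and 0.983% in OPCs and 1.14% and 1.37% in oligodendrocytes in RNA-seq. In footprints the share was 1.13% and 1.27% against 1.39% and 1.59%. The median log2 fold change of 0.41 in RNA-seq stayed between 0.25 and 0.56 over all settings.

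Cox4i1, the isoform of subunit IV found in most tissues, had the highest RNA level of the complex, at 655 and 629 FPKM in OPC cultures and 789 and 919.9 in oligodendrocyte cultures, and footprints at 1326 and 1248 FPKM in OPC cultures and 1344 and 1423 in oligodendrocyte cultures. Cox5b, a subunit on the matrix side, was at 174 and 173 FPKM in OPC cultures and 246 and 261 in oligodendrocyte cultures in RNA-seq (log2 change 0.55 ± 0.14, limma, adjusted p = 0.0315). Its footprints were at 884 and 672 FPKM in OPC cultures and 936 and 722 in oligodendrocyte cultures, where the groups overlapped. Cox6a1, the isoform of subunit VIa of non-muscle tissues (chr5:115345642-115348981, minus strand), was the subunit that rose in both kinds. Its RNA was at 314 and 275 FPKM in OPC cultures and 466 and 419 in oligodendrocyte cultures and its footprints at 749.6 and 816 FPKM in OPC cultures and 1166 and 1353 in oligodendrocyte cultures, with log2 fold changes of 0.59 ± 0.16 (adjusted p = 0.0374) and 0.68 ± 0.14 (adjusted p = 0.0365).

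Isoform pairs could be compared for subunits VIb and VIIb, as Cox4i2, Cox6a2, Cox7a1, Cox7a2, Cox7a2l, Cox8a, Cox8b, Cox8c and Ndufa4l2 are not among the listed members. Cox6b1, the common form, was at 268 and 338 FPKM in OPC cultures and 359 and 472 in oligodendrocyte cultures in RNA-seq. Cox6b2, known as the testis form, was at 3.45 and 0 FPKM in OPC cultures and 6.598 and 0 in oligodendrocyte cultures in RNA-seq and at 14.9 and 24.6 FPKM in OPC cultures and 29.96 and 37.6 in oligodendrocyte cultures in footprints. Cox7b RNA was 168 and 265 FPKM in OPC cultures and 239 and 316 in oligodendrocyte cultures, and its footprints were 1694 and 1617 FPKM in OPC cultures and 1292 and 1237 in oligodendrocyte cultures, lower in oligodendrocytes without overlap (log2 change -0.39 ± 0.12, limma, adjusted p = 0.0885, and 0.0285 with the culture number as a block). Cox7b2 was listed at 0 in 7 of 8 libraries and at 0.676 FPKM in the footprints of oligodendrocyte replicate 1. In both cell types the common forms carried nearly all of the signal of these subunits.

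The highest footprint level of complex IV was that of Ndufa4, at 2194 and 2606 FPKM in OPC cultures and 2312 and 2434 in oligodendrocyte cultures, with RNA at 378 and 564 FPKM in OPC cultures and 466 and 530.5 in oligodendrocyte cultures. Cox6c was at 384 and 484 FPKM in OPC cultures and 399.8 and 465 in oligodendrocyte cultures in RNA-seq and 1643 and 2108 FPKM in OPC cultures and 1657 and 1934 in oligodendrocyte cultures in footprints. Cox7c was at 237 and 334 FPKM in OPC cultures and 192 and 277 in oligodendrocyte cultures in RNA-seq and 569 and 521 FPKM in OPC cultures and 443 and 362 in oligodendrocyte cultures in footprints. Ndufa4 and Cox6c were nearly level between the cell types, and all words of the CDS of Cox7c occur in another gene.

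**Figure D3:**
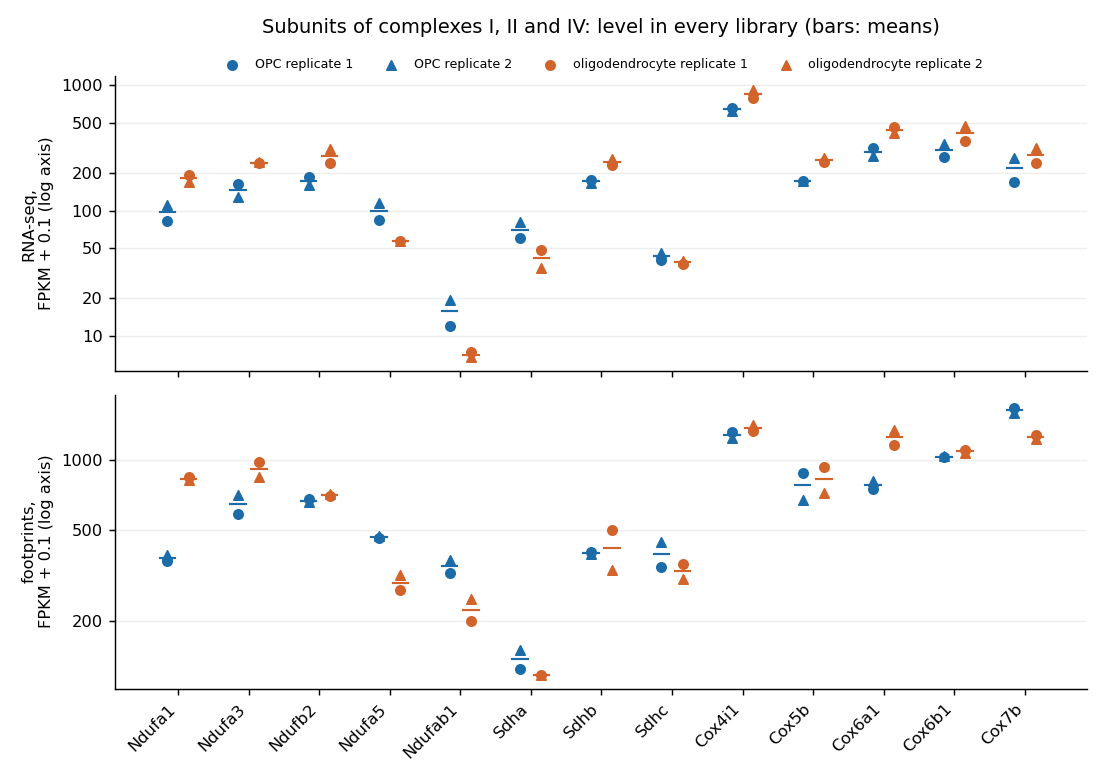
RNA-seq (top) and footprint (bottom) FPKM + 0.1 of subunits of complexes I, II and IV in every library, on log axes. Circles are replicate 1, triangles replicate 2, and short bars the mean of each cell type. Ndufa1 and Cox6a1 lie higher in oligodendrocytes in both panels, Ndufa5 lower in both, and Sdhb higher in the RNA-seq panel.

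In ATP synthase no subunit passed in RNA-seq (limma). There 2 of 14 had an unadjusted p under 0.05, beside 3781 of all 8346 transcripts. In footprints 4 of 14 fell, where 10.8% of all transcripts did, namely the 3 genes of the c subunit and Atp5o. With the culture number as a block Atp5g3 and Atp5o also passed as lower in RNA-seq, and Atp5a1 in footprints. Footprints of 9 of 14 subunits were lower in oligodendrocytes without overlap, and only those of Atp5h were higher, beside 37.9% and 31.8% of all transcripts. Summed over all 14, FPKM in oligodendrocytes was 0.841 times that in OPCs in RNA-seq and 0.817 times in footprints. As a share of all listed FPKM, the 14 took 1.29% and 1.52% in OPCs and 1.28% and 1.44% in oligodendrocytes in RNA-seq. In footprints they took 1.47% and 1.63% against 1.46% and 1.66%, nearly level. For the c subunit alone the sums were 0.721 and 0.632 times. Its share of footprint FPKM was 0.352% and 0.376% in OPCs and 0.271% and 0.297% in oligodendrocytes. In RNA-seq its share was 0.208% and 0.296% against 0.204% and 0.214%, which overlap.

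The 3 c-subunit genes are on different chromosomes, Atp5g1 at chr11:96068852-96075670, minus strand, Atp5g2 at chr15:102663014-102667749, minus strand and Atp5g3 at chr2:73908447-73911326, minus strand. Their import sequences differ and are cut off, so that the genes make the same mature protein. The last 75 codons of each CDS, of 136, 146 and 141 codons in all, encode the same residues in every pair of genes, yet 57 of the 225 bases differ among the 3 (Gencode vM21, GRCm38). They are shown since the 3 genes fell together, along with how far their bases are alike. Capitals mark the positions where the 3 are not alike.
Atp5g1: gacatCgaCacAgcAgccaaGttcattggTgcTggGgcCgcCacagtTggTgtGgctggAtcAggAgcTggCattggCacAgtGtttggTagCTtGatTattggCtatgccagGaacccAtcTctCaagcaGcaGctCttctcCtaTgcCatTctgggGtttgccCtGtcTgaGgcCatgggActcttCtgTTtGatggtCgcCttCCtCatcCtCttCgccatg
Atp5g2: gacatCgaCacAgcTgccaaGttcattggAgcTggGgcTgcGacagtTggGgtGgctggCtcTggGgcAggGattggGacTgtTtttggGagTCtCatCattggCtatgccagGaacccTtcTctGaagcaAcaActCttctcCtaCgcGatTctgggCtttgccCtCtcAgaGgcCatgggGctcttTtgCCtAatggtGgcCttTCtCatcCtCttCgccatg
Atp5g3: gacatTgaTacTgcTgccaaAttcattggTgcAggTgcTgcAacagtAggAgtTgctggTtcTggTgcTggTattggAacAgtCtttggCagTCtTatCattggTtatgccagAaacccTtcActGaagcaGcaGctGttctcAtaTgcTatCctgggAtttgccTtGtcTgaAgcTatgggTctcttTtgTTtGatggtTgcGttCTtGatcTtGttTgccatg
Of these bases 84.9% are identical between Atp5g1 and Atp5g2, 80% between Atp5g1 and Atp5g3 and 78.7% between Atp5g2 and Atp5g3, and the longest identical runs are 20, 11 and 8 bases. All 30-base words of the CDS of Atp5g1 and of Atp5g2 also occur in other genes, all of them pseudogenes, so their separate levels are uncertain. Atp5g3 shares no such word, so the 3 genes share none with each other.

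Atp5g3 had the highest level of the 3. Its footprints were 1989.8 and 1997 FPKM in OPC cultures and 1209 and 1151 in oligodendrocyte cultures, a log2 change of -0.76 ± 0.12 (limma, adjusted p = 0.0209). Atp5g2 footprints were 750.0 and 784 FPKM in OPC cultures and 541 and 554 in oligodendrocyte cultures (-0.49 ± 0.10, adjusted p = 0.0419), and Atp5g1 footprints were 419 and 369 FPKM in OPC cultures and 254 and 277 in oligodendrocyte cultures (-0.57 ± 0.12, adjusted p = 0.0433). For all 3, both oligodendrocyte cultures lay below both OPC cultures, as for 37.9% of all transcripts. The calls hold in 7, 5 and 6 of 12 settings for Atp5g3, Atp5g2 and Atp5g1. The median log2 fold change of the 3 in footprints was -0.57 and lay between -0.66 and -0.51 over all settings.

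RNA of the same genes did not pass. Atp5g3 was at 397 and 573 FPKM in OPC cultures and 326 and 291 in oligodendrocyte cultures (-0.63 ± 0.22, limma, adjusted p = 0.0705), Atp5g2 at 238 and 326 FPKM in OPC cultures and 223 and 261 in oligodendrocyte cultures, with overlap, and Atp5g1 at 18.5 and 22.7 FPKM in OPC cultures and 17.6 and 17.7 in oligodendrocyte cultures. Relative to Atp5c1, the central shaft of the catalytic head, the summed c-subunit footprint FPKM was 5.91 and 5.45 in OPCs and 4.55 and 3.99 in oligodendrocytes. The same ratio in RNA-seq was 2.53 and 2.73 in OPCs and 2.57 and 2.17 in oligodendrocytes, which overlap. Whether the fall differs between footprints and RNA is the change of ribosome density, which passed for none of the 3 genes.

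Within the catalytic head, Atp5b, the catalytic beta subunit and the member with the highest mean RNA level, was at 1001 and 988 FPKM in OPC cultures and 741 and 854 in oligodendrocyte cultures in RNA-seq and 1850.1 and 2108 FPKM in OPC cultures and 1529 and 1768 in oligodendrocyte cultures in footprints. Atp5c1 was at 258 and 337 FPKM in OPC cultures and 219.9 and 262 in oligodendrocyte cultures in RNA-seq and 535 and 578 FPKM in OPC cultures and 440.2 and 496 in oligodendrocyte cultures in footprints. The footprint FPKM ratio of Atp5b to Atp5c1 was 3.46 and 3.65 in OPCs and 3.47 and 3.56 in oligodendrocytes, a difference below the spread between cultures, and in RNA-seq it was 3.88 and 2.93 against 3.37 and 3.26. The assembled head holds several beta subunits for each gamma subunit, but whether FPKM ratios follow subunit numbers was not tested. Relative to Atp5c1, Atp5a1 footprints were 2.95 and 2.71 in OPCs and 2.69 and 2.38 in oligodendrocytes. The same ratio was 1.69 and 1.51 against 1.85 and 1.55 for Atp5d, and 1.51 and 1.59 against 2.11 and 1.81 for Atp5e. Atp5d and Atp5e had log2 fold changes of -0.08 and -0.01 in RNA-seq and -0.17 and 0.08 in footprints. Atp5a1, the alpha subunit, had footprints at 1575 and 1568 FPKM in OPC cultures and 1186 and 1182 in oligodendrocyte cultures, lower without overlap (-0.41 ± 0.11, limma, adjusted p = 0.0722).

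Among the stalk and membrane subunits, Atp5o, the protein at the top of the outer stalk that binds the head, fell in footprints. It was at 815 and 841 FPKM in OPC cultures and 586 and 473 in oligodendrocyte cultures (-0.65 ± 0.15, limma, adjusted p = 0.0477), and its RNA at 277 and 299 FPKM in OPC cultures and 216 and 207 in oligodendrocyte cultures (-0.44 ± 0.14, adjusted p = 0.0613). The Atp5o transcript shares 243 of its 838 bases with another annotated gene of the same symbol and strand, so its reads may be divided. Of the 30-base words of its CDS, 42.1% also occur in a pseudogene. Atp5h, also of the outer stalk, lay higher in oligodendrocytes, at 168 and 184 FPKM in OPC cultures and 195 and 279 in oligodendrocyte cultures in RNA-seq and 317 and 345 FPKM in OPC cultures and 423 and 418 in oligodendrocyte cultures in footprints, and did not pass. The remaining 4, Atp5f1, Atp5j, Atp5j2 and Atp5k, had log2 fold changes from -0.30 to 0.13 in RNA-seq and from -0.28 to -0.01 in footprints.

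**Figure D4:**
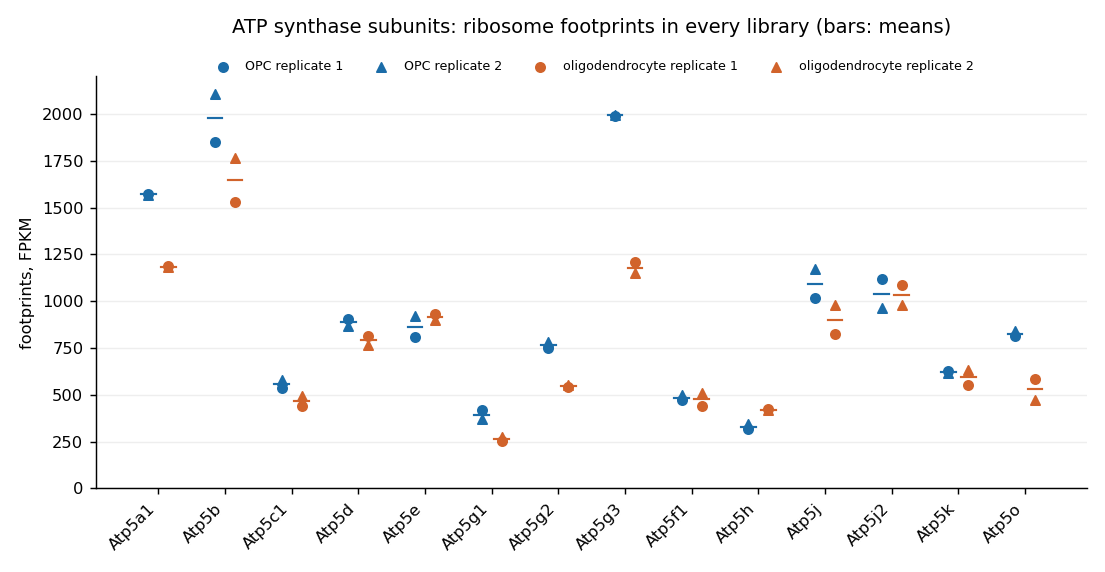
Footprint FPKM of the 14 ATP synthase subunits in every library. Circles are replicate 1, triangles replicate 2, and short bars the mean of each cell type. Footprints of Atp5g1, Atp5g2, Atp5g3 and Atp5o lie lower in both oligodendrocyte cultures than in both OPC cultures.

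Ribosome density (RD), footprint FPKM over RNA-seq FPKM of the same culture, was high for the members. Its median was 3.22 and 2.76 in OPCs and 2.81 and 2.71 in oligodendrocytes, beside 1.72 and 1.77, and 2.02 and 1.95, over all transcripts. Of the members with a value, 63 of 68 and 58 of 67 in OPCs and 61 of 67 and 52 of 65 in oligodendrocytes lay above the median of all transcripts. Because RNA-seq FPKM is scaled to the whole transcript and footprint FPKM to the CDS, RD takes in where reads fall in a transcript as well as how many ribosomes it holds. Across members, RD and the share of the transcript outside the CDS had a Spearman rho of 0.725 and 0.703 in OPCs and 0.701 and 0.618 in oligodendrocytes. Over all transcripts these were 0.370 and 0.306, and 0.372 and 0.311. Genes are not independent replicates, and RD and this share both depend on transcript length. Ndufab1, where 86.5% of the transcript is outside the CDS, had an RD of 26.96 and 19.3 in OPCs and 27.4 and 37.4 in oligodendrocytes.

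No member passed for a change of RD, where 0.0124% of all 8056 transcripts passed (limma interaction over the 8 libraries). At an unadjusted p under 0.05 there was 1 of 68, beside 387 of all 8056 transcripts. This was Ndufb2, with RD at 3.68 and 4.07 in OPCs and 2.95 and 2.32 in oligodendrocytes. In 11 of 12 alternative settings the number past the threshold was again 0, and without oligodendrocyte replicate 1 it was 1, Ndufaf8. The median log2 change of RD was -0.04 over members and 0.10 over all transcripts. RNA and footprint changes of the 68 members had the same sign in 56, with a Spearman rho of 0.806 across genes.

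By complex, RD of complex IV was lower in oligodendrocytes in both numbered pairs of cultures for 7 of 9 subunits, where 19.1% of all transcripts were. It was higher in both for 2, Cox6a1 and Cox6b2, where 39.2% were. Cox6b2 RNA was listed at 0 in replicate 2 of both cell types, so its second pair rests on the 0.1 added to FPKM. Its median log2 change was -0.16 and ranged from -0.37 to -0.15 over the settings. Cox7b had the largest of these differences, with RD at 10.1 and 6.099 in OPCs and 5.39 and 3.91 in oligodendrocytes, and Cox5b was at 5.097 and 3.89 in OPCs and 3.801 and 2.76 in oligodendrocytes. The core complex I subunit Ndufs1 had a higher RD in oligodendrocytes in both pairs, at 1.67 and 1.28 in OPCs and 1.98 and 2.18 in oligodendrocytes. None of these differences passed the test for a single transcript (limma, smallest adjusted p = 0.875).

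**Figure D5:**
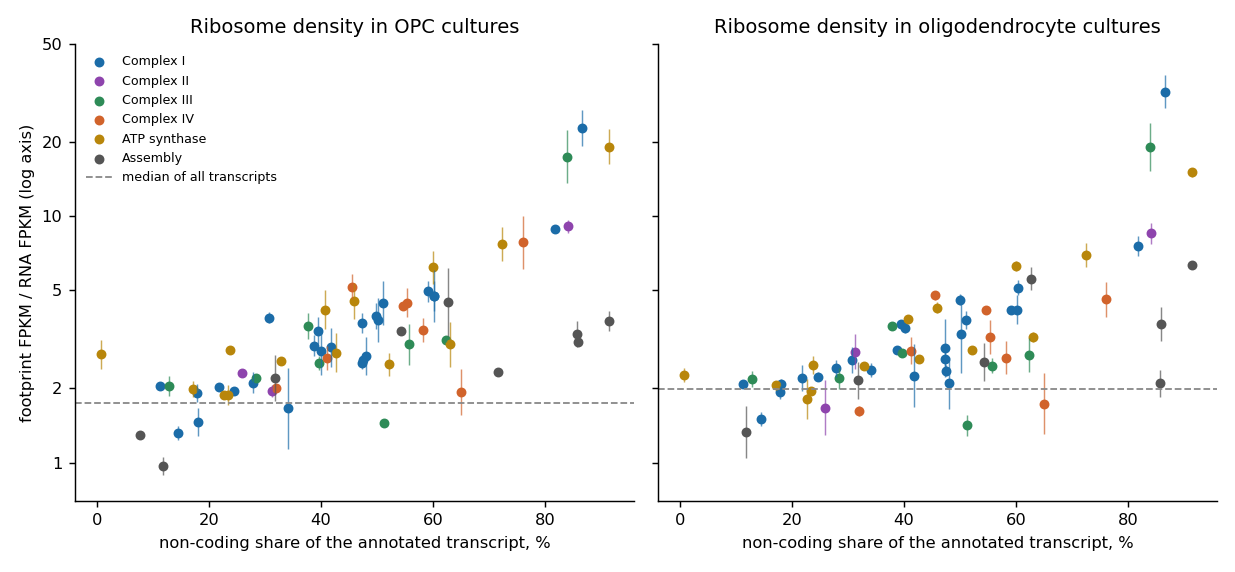
Ribosome density (footprint FPKM over RNA-seq FPKM, log axis) of each member against the percent of its transcript outside the CDS, for OPCs (left) and oligodendrocytes (right), coloured by complex. Members with a value in both cultures are drawn, points are the geometric mean of the 2 cultures, vertical lines join their values, and the dashed line is the median of all transcripts, above which most members lie, with ribosome density rising towards transcripts that are mostly non-coding.

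The other genes of the pathway, from a list of further assembly factors, electron carriers, mitochondrially encoded subunits and regulators of mitochondrial biogenesis, are given by their counts. Of 73 genes 47 are listed and 46 were tested, and in RNA-seq 2 passed as higher and 13 as lower, in footprints 0 as higher and 4 as lower, and none passed for RD. Of all transcripts 13% passed as higher and 20.2% as lower in RNA-seq, and 12.8% and 10.8% in footprints. The median change of the 46 was -0.55 for RNA and -0.54 for footprints on the log2 scale, beside -0.23 and -0.16 over all transcripts. The 2 that rose in RNA-seq were Pet100, an assembly factor of complex IV, at 18.4 and 21.8 FPKM in OPCs and 36.8 and 50.4 in oligodendrocytes, and Higd2a, at 67.6 and 60.4 against 109.9 and 98.1.

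Cycs, which encodes the electron carrier cytochrome c, had RNA at 35.1 and 46.9 FPKM in OPCs and 16.6 and 14.3 in oligodendrocytes, and footprints at 469.8 and 452 against 175 and 149. Its log2 change was -1.39 ± 0.22 in RNA-seq (limma, adjusted p = 0.00718) and -1.51 ± 0.13 in footprints (adjusted p = 0.00728). Sco1, a copper chaperone of complex IV, was at 15.5 and 12.1 FPKM in OPCs and 5.89 and 3.90 in oligodendrocytes, and Uqcc1, an assembly factor of complex III, at 12.3 and 15.5 against 6.43 and 3.45. RNA of both fell, by 1.49 ± 0.32 and 1.53 ± 0.37 on the log2 scale (adjusted p = 0.0181 and 0.0259).

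Of 9 biogenesis regulators tested, 5 fell in RNA-seq, where 20.2% of all transcripts did, and none rose, and in footprints 1 fell, Ppargc1a, where 10.8% did. Ppargc1a, the coactivator PGC-1 alpha, was at 5.66 and 5.02 FPKM in OPCs and 1.58 and 0.954 in oligodendrocytes in RNA-seq (log2 fold change -2.03 ± 0.45, limma, adjusted p = 0.0205). Its footprints were at 6.196 and 9.07 FPKM in OPCs and 0.365 and 0 in oligodendrocytes. The footprint call of Ppargc1a thus rests on a low value and a value listed at 0. The other 4 that fell in RNA-seq, named after their values were seen, were Pprc1, Nrf1, Esrra and Tfam. Nrf1, whose protein binds the motif marked in the Ndufaf4 and Cox6a1 promoters, was at 17.5 and 23.6 FPKM against 12.1 and 10.1 (adjusted p = 0.0404), and Tfam, the factor that packs and transcribes mitochondrial DNA, at 15.6 and 17.2 against 8.95 and 9.76 (adjusted p = 0.0366). In RNA-seq both cultures of oligodendrocytes lay below both of OPCs for each of these, as for 44.2% of all transcripts. These genes were named because they passed as lower.

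Short, highly expressed genes of this kind have many processed copies in the genome, which bears on the levels above. At least 1 word of 30 bases of the CDS is shared with another gene for 40 of the 69 members, over 50% of the words are shared for 13, and all of them for 5, namely Atp5g1, Atp5g2, Cox7c, Ndufab1 and Ndufb4. The other 29 share none. Exons of 21 members overlap an oppositely oriented gene, and use of strand in the authors' counting is not stated, so reads of such pairs cannot be told apart. Among the members that passed in both kinds, Ndufaf5 shares no word, Ndufa5 shares 3.42%, Ndufa1 4.89%, Ndufaf4 9.13% and Cox6a1 33.5% of its words. Atp5g3 and Sdhb share none, and Cox5b shares 75.1%.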

How the data were processed

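Ribosome footprints and total RNA of 2 OPC and 2 oligodendrocyte cultures gave 8 libraries, sorted into groups by their titles. The authors deposited FPKM values. They trimmed adapters with fastx_clipper, mapped reads to GRCm38 with HISAT2 2.1.0 and tabulated FPKM with StringTie 1.3.5 and ballgown for canonical coding transcripts, over the whole transcript for RNA-seq and over the CDS for footprints. All 10987 transcripts were found in Gencode vM21 (GRCm38), which gave coordinates and coding sequences. Promoters are from RefSeq.

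FPKM were used as deposited. The test was limma (3.58.1, run in R 4.3.3) applied to log2(FPKM + 0.1), two-sided, with a trend of variance on level, keeping transcripts whose mean reached 1 FPKM, in separate fits for RNA-seq and footprints over 4 libraries each. Benjamini-Hochberg adjustment of p-values ran over all transcripts, with a threshold of 0.05. A fold change on this scale understates the change of low genes. The change of ribosome density was the interaction term, cell type by library kind, in a fit of all 8 libraries. Errors beside fold changes are SE. Other tables were made with Python 3.11.15, pandas 2.3.3 and numpy 2.4.6. Depth was estimated from the 1500 lowest values of each library, and the true number of aligned bases may be a whole multiple of the estimate.

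The members and gene lists were chosen with earlier results of these data known, so no p-value is given over the list, and lists are described by counts and medians beside those of all transcripts. Values in every library were given for up to 5 members per direction with the smallest adjusted p past the threshold, isoforms, core subunits, the highest and lowest of each complex and members listed at 0. A few members outside this rule, such as Ndufaf1, Ndufb7, Uqcr11, Atp5a1, Atp5h and the 3 complex II assembly factors, are given with values chosen after these were seen. Values of some genes that meet the rule are not reported here. For other pathway genes the rule took up to 3 largest changes per direction.

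The study's methods state that oligodendrocytes came from the corresponding OPC replicates, so the replicate numbers in the labels were taken to pair the cultures. Across transcripts, the deviations of cultures with the same number correlated with r of 0.108 in RNA-seq, 0.0860 in footprints and 0.0604 in ribosome density. The tests were tested on simulated data with 200 transcripts changed. At a log2 change of 1, with few transcripts changed, 0 of 200 were recovered in each comparison, and at 2, 60 in RNA-seq, 53 in footprints and 56 in ribosome density. Alternatives were another pseudocount, another filter, no filter, median-ratio scaling, no trend, the replicate block, ribosome density per culture, each culture left out, and, chosen after the data were seen, transcripts listed at 0 left out.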

Additional observations from a re-analysis of the deposited data

How the results depend on the processing

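With the replicate number as a block, which pairs the cultures, 18 members passed in RNA-seq (8 higher and 10 lower). In footprints 14 did (2 higher and 12 lower). Without the block 11 and 9 members passed. Of all transcripts, 3323 of 8346 in RNA-seq and 1735 of 8342 in footprints passed with it. Under limma without the trend, 3 members passed in RNA-seq (0 higher and 3 lower) and 2 in footprints (1 higher and 1 lower). Of all transcripts, 2075 and 1036 did. Without a filter on low values 7 members passed in RNA-seq, 3 of them higher, beside 2531 of 10693 transcripts. Median-ratio scaling gave 10 members in RNA-seq (7 higher and 3 lower) and 4 in footprints (1 higher and 3 lower). Of all transcripts, 2610 and 1883 passed under it. The scaling moved the median log2 fold change of the members from -0.15 to 0.034 in RNA-seq. Their median change of ribosome density went from -0.04 to -0.20, and all transcripts shifted by 0.18 and -0.16. Leaving out each culture in turn gave 1 to 4 calls in RNA-seq (0 higher and 1 to 4 lower), 0 to 11 in footprints (0 to 2 higher and 0 to 9 lower) and 0 to 1 in ribosome density (0 to 1 lower), with the RNA-seq median between -0.32 and 0.031. In these fits a lone culture is assumed to vary like the other group. The cause of these moves was not tested. None of the 11 changes in RNA-seq and 9 in footprints that passed turned in sign under any setting run, while among those that did not pass, 24 of 57 in RNA-seq, 19 of 59 in footprints and 39 of 68 in ribosome density turned in at least 1 setting. A member that did not pass may still have changed. The simulations, with only 200 transcripts changed, do not give the smallest change that could pass here, since the Benjamini-Hochberg threshold loosens with the 2772 and 1969 calls of the data, and members passed at changes as small as 0.51 in RNA-seq and -0.49 in footprints.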

Other observations

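The members have short coding sequences, with a median of 408 bases against 1374 over all listed transcripts, and 63 of 69 lie below that median. Among synonymous codons, their median share of UUU among Phe codons was 0.5 against 0.429 over all transcripts, and their median share of AAA among Lys codons was 0.308 against 0.368. Among the complexes and the assembly factors, the latter had the highest median AAA share, 0.526, and a median CDS of 519 bases, below the 846 bases of complex II. Complex IV had the lowest median AAA share, 0.236, and the shortest median CDS, 252 bases. The order differed for UUU. Its median share was 0.4 in complex IV, 0.455 in the assembly factors and 0.472 in ATP synthase. In complexes I, II and III it was 0.5, 0.571 and 0.556. These shares are properties of the sequences, and no relation to the levels was tested.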
